A study of Mus musculus with 8 samples.

Results

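The heat shock proteins and their J-domain co-chaperones were followed in RNA from brown adipose tissue (BAT) of mice with and without cancer-associated cachexia (CAC). The members were the genes of the count table whose symbols begin with Hspa, Hspb, Hsph, Hsp90, Dnaja, Dnajb or Dnajc, together with Hsf1, Hsf2, Bag3 and Stip1, and without 9 chaperones of the endoplasmic reticulum and mitochondria. This gave 69 of 56953 genes. BAT came from wild-type C57BL/6J mice, male or female, of 8 to 10 weeks at injection and housed at 21.0 °C. The 4 CAC mice were injected under the skin of the right flank with 3000000 Lewis lung carcinoma (LLC) cells, a mouse lung cancer line, in 100 µl PBS, and the 4 control (CTR) mice received PBS alone. The sex of each mouse was not given in the labels, which also do not say whether the groups were made and sampled together. The labels number the libraries 1 to 4 in each group without naming animals, and p values measure the spread between these libraries.

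Heat shock proteins are molecular chaperones that keep other proteins folded. HSP70 proteins bind unfolded stretches and need J-domain proteins, encoded by the Dnaja, Dnajb and Dnajc genes, to start their ATP cycle, and HSP110 and BAG proteins to release ADP and end it. HSP90 proteins take over clients that are close to folded, and small heat shock proteins hold unfolded ones without ATP. Under heat or protein stress the transcription factor HSF1 binds heat shock elements, inverted repeats of the letters GAA, in the promoters of the inducible members. In BAT, where mitochondria burn fuel to make heat, these chaperones serve a tissue of high protein turnover and changing temperature.

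Promoter stretches of 7 members are shown because they hold the letters that HSF1 is known to bind, in 6 heat-inducible members and in Dnajb6. The letters searched were GAANNTTC and TTCNNGAA, each its own reverse complement, where N is any base. A longer form has GAA, TTC and GAA, or TTC, GAA and TTC, each 2 bases apart, so that it holds both shorter ones, and its 2 versions are each other's reverse complement. Sequences are RefSeq promoters of GRCm38.p6, 5′ to 3′ on the strand of the gene, and capitals mark the matched letters that lie before the start site.
Hspa1a: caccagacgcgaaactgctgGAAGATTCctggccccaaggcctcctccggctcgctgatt
Hspa1b: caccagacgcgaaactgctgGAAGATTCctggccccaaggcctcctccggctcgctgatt
Hspb1: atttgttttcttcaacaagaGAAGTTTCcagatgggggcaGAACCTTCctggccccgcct
Hsph1: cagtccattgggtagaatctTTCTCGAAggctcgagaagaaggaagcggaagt
Dnajb4: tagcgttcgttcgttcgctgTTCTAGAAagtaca
Dnaja1: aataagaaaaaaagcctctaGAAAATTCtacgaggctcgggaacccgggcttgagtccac
Dnajb6: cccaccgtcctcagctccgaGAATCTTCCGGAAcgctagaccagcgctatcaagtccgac
The Hspa1a and Hspa1b stretches, chr17:34972221-34972280 and chr17:34959303-34959362 on the minus strand, differ at 0 of 60 bases. The others lie at chr5:135887782-135887841 (Hspb1, plus strand), chr5:149636337-149636389 (Hsph1, minus), chr3:152193846-152193879 (Dnajb4, minus), chr4:40722324-40722383 (Dnaja1, plus) and chr5:29735832-29735891 (Dnajb6, plus). The Hspb1 stretch holds the letters at 2 places, and the Dnajb6 stretch holds the longer form.

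Promoters of 56 members were in the table, from 250 bases before to 50 after the start. Of these, 15 (26.8%) held the short letters, against 17% of the 27025 genes of the table. Among 14 members listed from general knowledge as inducible by heat, 11 had a promoter there and 8 of them (72.7%) held the letters, whereas 7 of the 45 other members (15.6%) did. Bag3 and Hspb8 hold them only after the start. The longer form was found in 2 members, Dnajb6 and Hsph1, where it lies after the start, and in 0.662% of all genes. The members without an entry were Dnajc2, Dnajc5, Dnajc5b, Dnajc11, Dnajc12, Dnajc18, Dnajc22, Dnajc30, Hsf1, Hsp90aa1, Hsp90ab1, Hspa8 and Hspb2. A match of letters is a description and shows no binding.

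RNA was counted as reads per gene, with totals of 2454493 to 4827956 per library in CTR and 1823167 to 3392538 in CAC. Levels are given in CPM, which are counts scaled by the size of the library after TMM normalization, and are compared between groups only, never between genes. A count of 0 allows a level of up to 3 counts, which was 0.66 to 1.24 CPM in CTR and 0.88 to 1.62 CPM in CAC, for counting error only. Of the 69 members, 48 had enough counts to be tested with edgeR's quasi-likelihood test. The other 21 had no more than 23 counts in any library, and Dnajb8, Dnajc5b, Dnajc5g, Dnajc6 and Hspb9 had 0 counts in all 8. The tissue label was checked by brown adipocyte markers, of which 10 of 10 were tested, with sums of 17099 to 19093 CPM in CTR and 16504 to 18914 CPM in CAC, and 1 of them was higher and 3 were lower at an unadjusted p under 0.05.

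No member differed between CAC and CTR at an adjusted p under 0.05 in edgeR (0 of 48, against 0.932% of all 9876 genes tested), and DESeq2 and limma also gave 0. With an unadjusted p under 0.05, 6 members were higher in CAC, or 12.5% of those tested against 7.01% of all genes, and 4 were lower, or 8.33% against 5.93%. The 6 higher ones were Stip1, Hsph1, Hspb1, Hsp90aa1, Bag3 and Hsp90ab1. All of these belong to the heat-inducible list, and none has a J-domain. The 4 lower ones were Hspa12a, Hspa12b, Hspa14 and Dnajc19, none of them on that list. The median log2 fold change was 0.01 over the 48 members, with 25 higher and 23 lower, and 0.00 over all genes, 50% of which were higher. Of the 6 higher members, 6 also had an unadjusted p under 0.05 in DESeq2, but of the 4 lower ones only Hspa12b did. Without CTR replicate 1, CTR replicate 3, CAC replicate 2 or CAC replicate 4, the number of lower members was 1, 2, 2 and 2. In those fits 4.48% to 5.22% of all genes were lower. The number was 5 without CAC replicate 1 (5.69% of all genes) and under upper quartile (7.02%) or library size scaling (5.83%).

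**Figure D1:**
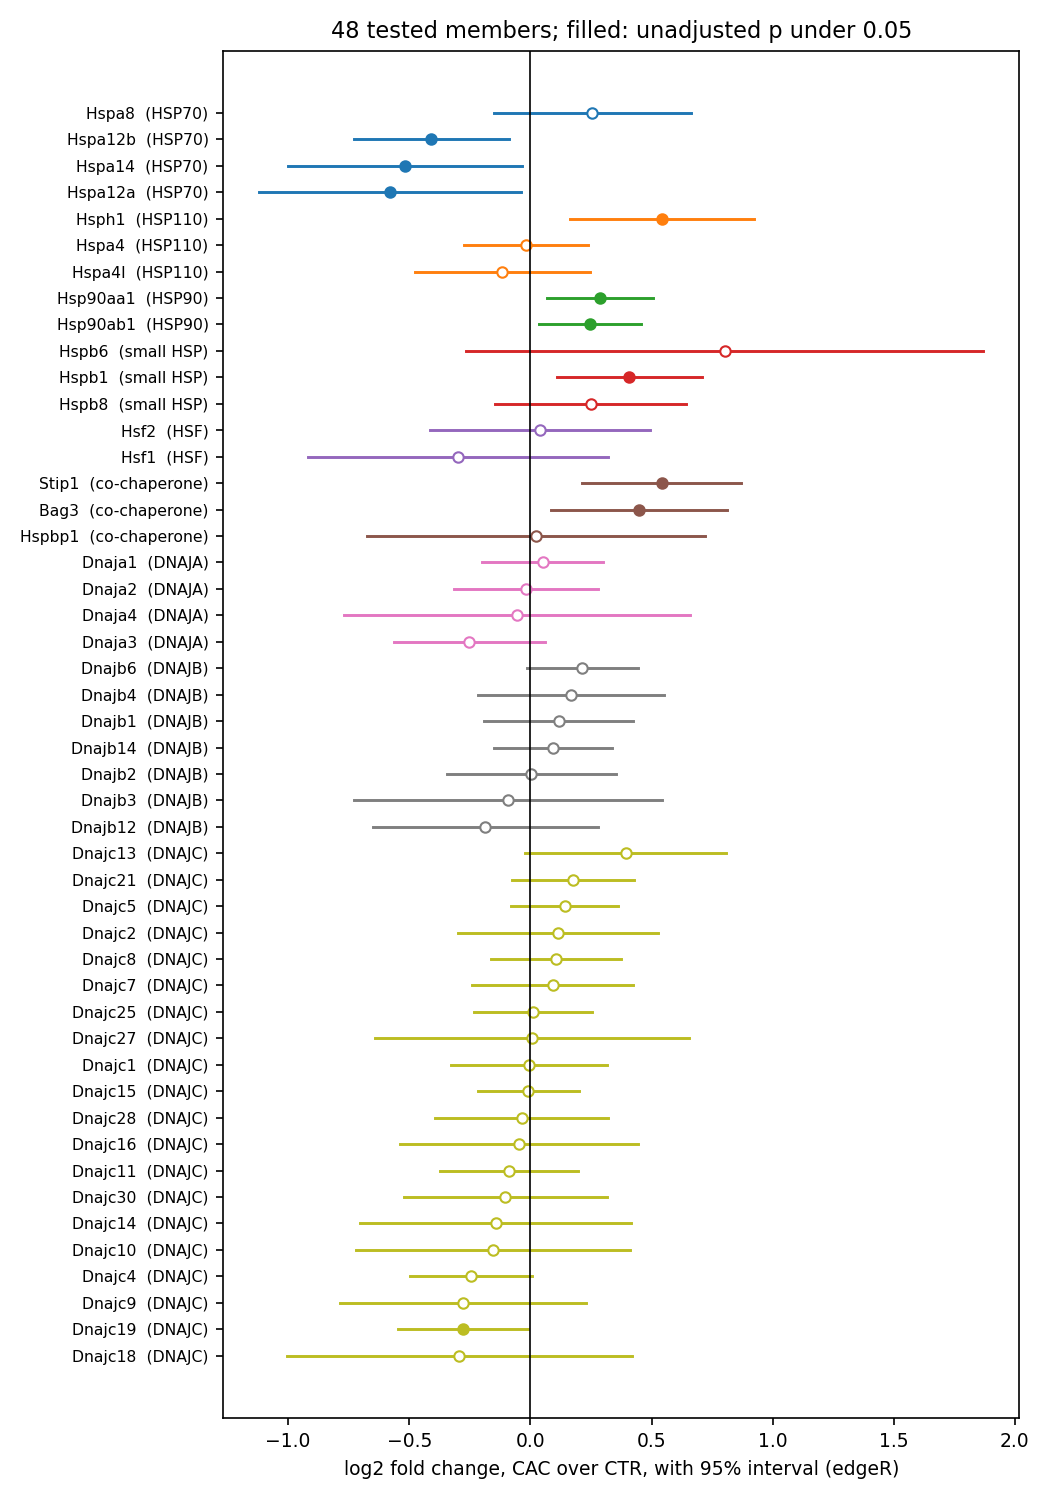
Log2 fold change of CAC over CTR (horizontal axis) for each of the 48 tested members, grouped by role and coloured by it, with the 95% interval of the edgeR fit (line); filled points have an unadjusted p under 0.05. The 6 filled points above 0 lie in the HSP110, HSP90, small heat shock protein and co-chaperone classes, and the 4 below 0 in the HSP70 and DNAJC classes.

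The heat-inducible members had mostly positive log2 fold changes. Of the 14, 12 were tested, and 11 of these were higher and 1 was lower. The median log2 fold change was 0.25. Of the other 36 members tested, 14 were higher and 22 lower, and the median was -0.03. A list outside the members, of genes of the HSF1 circuit and other heat-induced genes, had 9 of 11 tested. Of these, 6 were higher and 3 lower, with a median of 0.06. At an unadjusted p under 0.05, 1 was higher and 1 lower (11.1% each, against 7.01% and 5.93% of all genes). No test was made of either list. The median of the heat-inducible members was 0.23 to 0.26 under every other scaling, filter or tool that kept 12 genes. It was 0.22 with the low-count filter off, and 0.19 to 0.31 when each of the 8 libraries was left out in turn. The lowest of these was obtained without CAC replicate 1, the library with the highest median deviation of the 12 genes, 0.42 on the log2 scale, against 0.12 to 0.21 in the other CAC libraries and -0.13 to 0.15 in the CTR libraries.

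**Figure D2:**
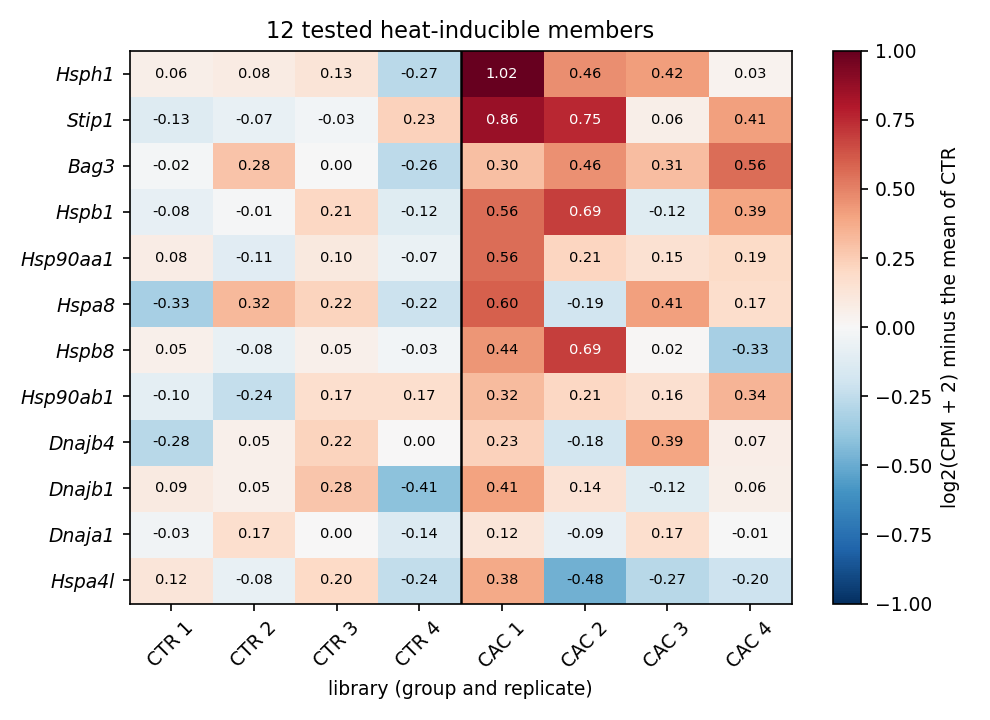
Level of the 12 tested heat-inducible members (rows) in each library (columns), as log2(CPM + 2) minus the mean of the 4 CTR libraries, printed in each cell and shown by colour from blue (lower) to red (higher). CAC replicate 1 lies above the mean of CTR in every row, while the other CAC libraries lie below it in at least 1 row.

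The cytosolic HSP90 genes both had positive log2 fold changes with an unadjusted p under 0.05, but neither had an adjusted p under 0.05. Hsp90aa1 (ENSMUSG00000021270.14, chr12:110690605-110702728 in GRCm38), the stress-inducible form, stood at 226.8, 198.9, 230.4 and 204.8 CPM in CTR replicates 1 to 4 and at 317.0, 249.1, 239.1 and 245.5 CPM in CAC. The lowest CAC library exceeded the highest CTR library. The mean was 215.2 ± 15.7 CPM (SD, n = 4) in CTR against 262.7 ± 36.5 CPM in CAC. Its log2 fold change was 0.29 (SE 0.11, edgeR adjusted p = 0.237). Without CAC replicate 1 it was 0.19, and the unadjusted p was then over 0.05. Hsp90ab1 (ENSMUSG00000023944.15, chr17:45567775-45573271), the constitutive form, stood at 1120, 1014, 1345 and 1347 CPM in CTR and 1493, 1384, 1337 and 1515 CPM in CAC, so that 3 of 4 CAC libraries exceeded every CTR library. The log2 difference was 0.25 (SE 0.10, edgeR adjusted p = 0.286). Its unadjusted p was over 0.05 without CTR replicate 1, CTR replicate 2 or CAC replicate 4.

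Among the co-chaperones without a J-domain, Stip1 and Bag3 had positive log2 fold changes with an unadjusted p under 0.05. Neither had an adjusted p under 0.05 in the main edgeR fit. Stip1 (ENSMUSG00000024966.10, chr19:7020702-7039967) encodes HOP, which holds HSP70 and HSP90 together while a client passes from one to the other. It stood at 45.6, 47.7, 49.1 and 59.3 CPM in CTR and 92.8, 86.0, 52.2 and 67.4 CPM in CAC, and CAC replicate 3 was the only CAC library within the CTR range. The means were 50.4 ± 6.07 and 74.6 ± 18.4 CPM (SD, n = 4). On the log2 scale the fitted difference was 0.54 (SE 0.16), and its edgeR adjusted p of 0.11 was the smallest of all members. Without CAC replicate 3 the log2 fold change was 0.69 and the edgeR adjusted p 0.0342, and with the low-count filter off they were 0.51 and 0.0102. Stip1 was called in those 2 of 17 alternatives, and over all of them the adjusted p ranged from 0.0102 to 0.279 in edgeR, DESeq2 and limma.

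Bag3 (ENSMUSG00000030847.9, chr7:128523616-128546981) encodes a nucleotide exchange factor of HSP70 that works with HSPB8 in the autophagy of misfolded proteins. Its levels were 14.8, 18.6, 14.9 and 12.1 CPM in CTR and 18.9, 21.3, 19.0 and 23.0 CPM in CAC. The groups did not overlap, with a gap between CTR replicate 2 and CAC replicate 1 that was small against the spread of either group. The log2 fold change was 0.45 (SE 0.17, edgeR adjusted p = 0.262), and the unadjusted p was over 0.05 without CTR replicate 4 or CAC replicate 4. Bag3 overlaps the annotated gene 2610306O10Rik on its own strand.

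The HSP110 proteins help HSP70 to release ADP, and their 3 tested genes had log2 fold changes from -0.12 to 0.54, with a median of -0.02. The difference between these genes was not tested. Hsph1 (ENSMUSG00000029657.16, chr5:149614287-149636376), whose promoter stretch is shown above, had 24.8, 25.3, 26.1 and 19.4 CPM in CTR and 50.3, 33.5, 32.5 and 24.4 CPM in CAC. CAC replicate 1 had the highest level and CAC replicate 4 lay within the CTR range. The mean went from 23.9 ± 3.06 to 35.2 ± 10.9 CPM (SD, n = 4). The log2 difference was 0.54 (SE 0.18, edgeR adjusted p = 0.182). This was 0.35 without CAC replicate 1, the lowest of the 8 fits that each left out 1 library, and 0.70 without CAC replicate 4. Hspa4l (ENSMUSG00000025757.14, chr3:40744495-40796103) averaged 30.2 ± 4.41 CPM (SD, n = 4) in CTR against 27.8 ± 8.24 CPM in CAC. Its log2 fold change was -0.12, with a 95% interval of -0.48 to 0.24 (edgeR adjusted p = 0.843), and ranged from -0.30 (without CAC replicate 1) to -0.02 (without CAC replicate 2) when 1 library was left out.

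The class of small heat shock proteins was taken by symbol, as Hspb with a number, and 3 of its 8 genes could be tested. All 3 had positive log2 fold changes, 1 of them with an unadjusted p under 0.05 and 0 with an adjusted p under 0.05 in the main edgeR fit. Hspb1 (ENSMUSG00000004951.11, chr5:135887919-135889563), whose promoter has 2 matches, encodes HSP25, a stress-inducible holdase that also binds actin. Its levels were 143.4, 150.7, 176.2 and 139.9 CPM in CTR and 224.3, 246.5, 139.9 and 199.9 CPM in CAC. CAC replicate 3 lay at the low end of the CTR range, and the other CAC libraries lay above all CTR libraries. The log2 fold change was 0.41 (SE 0.14, edgeR adjusted p = 0.216). Without CAC replicate 3 it was 0.55 with an adjusted p of 0.0345, and with the low-count filter off 0.38 with 0.0422 (edgeR), and the adjusted p ranged from 0.0345 to 0.427 over all alternatives.

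Hspb8 (ENSMUSG00000041548.5, chr5:116408491-116422864), the partner of BAG3, was close to constant in CTR, at 112.1 to 122.8 CPM, and spread from 93.4 to 192.0 CPM in CAC. The log2 difference was 0.25 with a 95% interval of -0.14 to 0.64 (edgeR adjusted p = 0.618). With 1 library left out it ranged from 0.07 (without CAC replicate 2) to 0.41, and the unadjusted p was under 0.05 in 1 of 8 such fits. Hspb6, a small heat shock protein of muscle that was named after its values were seen, had the largest log2 fold change of all tested members, 0.80, with an interval of -0.27 to 1.87 (edgeR adjusted p = 0.525). With 1 library left out it ranged from 0.64 to 1.17. With the replicate block it was 0.81, with an edgeR unadjusted p of 0.00142 and an adjusted p of 0.0763, where the main edgeR fit gave an unadjusted p of 0.117. That block pairs libraries by number, but same-numbered libraries correlated at only 0.03, -0.03, 0.02 and 0.04 in their deviations. The pairing thus has no basis in the labels or the data, and the blocked p carries no weight. Its levels were 36.8, 56.6, 100.0 and 40.6 CPM in CTR and 46.5, 130.4, 116.3 and 106.8 CPM in CAC, with CTR replicate 3 and CAC replicate 1 lying among the other group.

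Of the 4 tested HSP70 genes, 1 had a positive and 3 a negative log2 fold change, 0 of them with an adjusted p under 0.05 in edgeR. The difference between the genes was not tested. Hspa8 (ENSMUSG00000015656.18, chr9:40800984-40810087), the constitutive HSC70, had 96.4, 152.7, 142.4 and 104.4 CPM in CTR and 185.2, 106.5, 161.9 and 137.4 CPM in CAC. The groups overlapped, and its log2 fold change of 0.26 had an interval of -0.15 to 0.66 (edgeR adjusted p = 0.618). With 1 library left out it ranged from 0.14 (without CAC replicate 1) to 0.38, and was 0.15 without CTR replicate 1. Its unadjusted p was under 0.05 in 1 of those 8 fits, and was 0.0432 in edgeR with the low-count filter off. The strongly inducible pair Hspa1a (ENSMUSG00000091971.4, chr17:34969190-34972156) and Hspa1b (ENSMUSG00000090877.4, chr17:34956436-34959238) was at the edge of detection. Hspa1a had 7, 4, 3 and 5 counts in CTR and 2, 2, 5 and 4 in CAC, and Hspa1b had 2, 8, 5 and 1 counts in CTR and 1, 2, 5 and 1.5 in CAC. Because the counting could split reads between such near-identical copies, although a fraction of a read was seen only in 1 library, for Hspa1b, they were also summed, to 9, 12, 8 and 6 counts in CTR and 3, 4, 10 and 5.5 in CAC. The sum averaged 2.77 ± 0.97 CPM (SD) in CTR against 2.15 ± 0.56 CPM in CAC (n = 4 each, exact two-sided permutation p = 0.343, where 0.0286 is the smallest p that 4 against 4 libraries allow). The levels of the pair overlapped between the groups.

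The 3 lower HSP70 genes are outside the inducible list. Hspa12b (ENSMUSG00000074793.11, chr2:131127280-131146321), a distant member of the family known from endothelial cells, had 28.8, 24.4, 27.4 and 22.6 CPM in CTR and 15.9, 19.9, 20.7 and 19.7 CPM in CAC. All CAC libraries lay below all CTR libraries, and the log2 fold change was -0.41 (SE 0.15, edgeR adjusted p = 0.245). Its p stayed under 0.05 in 8 of 8 fits that left out a library and in 9 of 9 other alternatives, and the adjusted p ranged from 0.206 to 0.500 over them in edgeR, DESeq2 and limma. The 6 endothelial markers summed to 1218 to 1246 CPM in CTR and 972 to 1454 CPM in CAC, with 0 of 6 higher and 1 of 6 lower at an unadjusted p under 0.05 and none of them at 0. Most of each sum came from 1 gene, Egfl7, at 763 to 1175 CPM over the 8 libraries, so the sums say little of the other 5, and the part of endothelial RNA in the Hspa12b values was not tested. In bulk tissue, fewer cells of a type and less RNA per cell cannot be told apart.

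Hspa12a (ENSMUSG00000025092.8, chr19:58795750-58943654), its paralog, had 10.1, 9.59, 6.22 and 8.16 CPM in CTR and 8.11, 4.25, 4.69 and 6.27 CPM in CAC, so that the groups overlapped. The log2 fold change was -0.58 (SE 0.26, edgeR adjusted p = 0.344). Hspa14 (ENSMUSG00000109865.2, chr2:3488850-3512814), an HSP70 protein of the ribosome-associated complex, had 15.8, 10.1, 11.4 and 9.48 CPM in CTR and 8.92, 8.24, 6.30 and 9.24 CPM in CAC. These groups did not overlap, although CTR replicate 4 and CAC replicate 4 lay close to each other, and the log2 fold change was -0.52 (SE 0.23, edgeR adjusted p = 0.341). Leaving out 1 library took the p of Hspa12a over 0.05 in 5 of 8 fits and that of Hspa14 in 3 of 8, and Hspa14 shares its strand with the overlapping gene Gm45902.

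**Figure D3:**
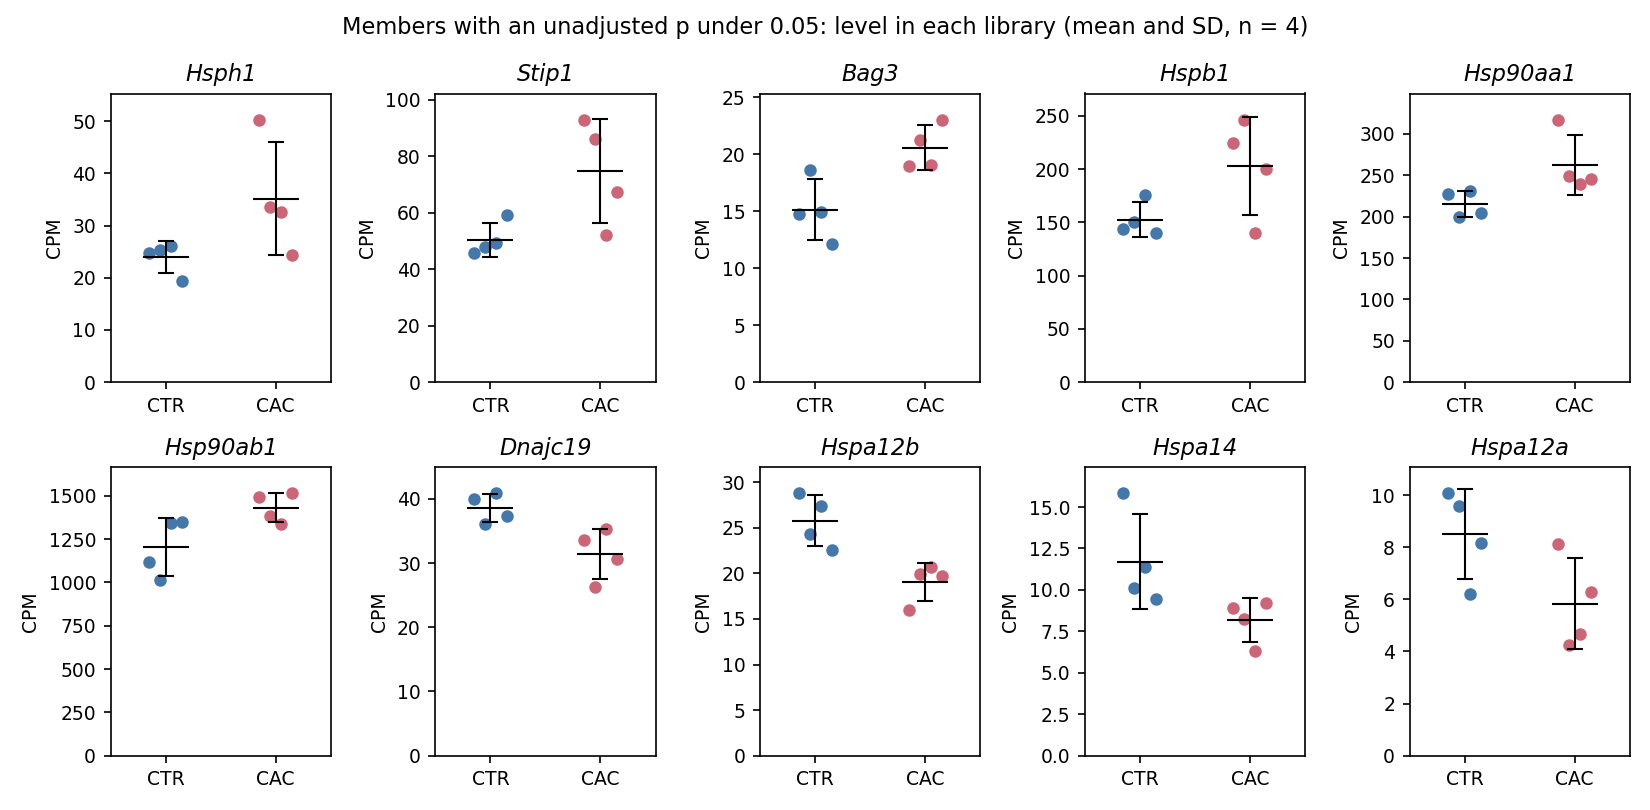
Level in CPM (vertical axis, from 0) of the 10 members with an unadjusted p under 0.05 in each of the 4 CTR (blue) and 4 CAC (red) libraries, with the mean (long bar) and SD (error bar). All CAC points of Bag3 and Hsp90aa1 lie above the CTR points, and all CAC points of Dnajc19, Hspa12b and Hspa14 lie below them.

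The transcription factors of the heat shock response overlapped between the groups. Hsf1 (ENSMUSG00000022556.12, chr15:76477422-76501913) had 7.56, 6.13, 4.56 and 4.19 CPM in CTR and 3.24, 5.85, 4.69 and 4.18 CPM in CAC. Its log2 fold change was -0.30, with an interval of -0.92 to 0.32 (edgeR adjusted p = 0.734), and ranged from -0.44 (without CTR replicate 4) to -0.14 (without CTR replicate 1) when 1 library was left out. Hsf2 (ENSMUSG00000019878.9, chr10:57486385-57513135) had 10.4, 11.9, 15.6 and 21.8 CPM in CTR and 13.5, 19.1, 15.1 and 14.99 CPM in CAC, so that the CAC libraries all lay inside the CTR range. The log2 difference was 0.04, with an interval of -0.42 to 0.50 (edgeR adjusted p = 0.965), and its sign turned in 3 fits that left out a library. HSF1 acts mainly through its activation as a protein, which RNA does not measure.

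The J-domain genes, the largest class, lay around 0. Of 42 members, 31 were tested, 14 of them higher and 17 lower, with a median of -0.01 on the log2 scale and a range of -0.29 to 0.39. Only Dnajc19 had an unadjusted p under 0.05, so that 0% of the class were higher and 3.23% lower at that p, against 7.01% and 5.93% of all genes. With 1 library left out, 0 or 2 were lower (4.1% to 6.16% of all genes), and DESeq2 gave 0 (3.66%). Upper quartile and library size scaling gave 2 (7.02% and 5.83%). Without CAC replicate 4, 2 were higher and 0 lower, against 6.71% and 5.18% of all genes then. Dnajc19 encodes the J-domain protein of the motor that pulls proteins into the mitochondrial matrix (ENSMUSG00000027679.14, chr3:34056020-34081321). Its levels were 39.9, 36.2, 40.9 and 37.4 CPM in CTR and 33.5, 26.3, 35.2 and 30.7 CPM in CAC, and all CAC libraries lay below all CTR libraries. The log2 fold change was -0.28 (SE 0.13, edgeR adjusted p = 0.360), and its p was over 0.05 in 5 of the 8 fits that left out a library. Dnajc19 overlaps Fxr1 on the opposite strand, and the strand setting of the counting is not given in the sources used here.

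The J-domain genes of the heat-inducible list did not differ detectably. Dnajb1 (ENSMUSG00000005483.11, chr8:83608193-83612653), encoding HSP40, the classical partner of inducible HSP70, averaged 54.6 ± 10.7 CPM (SD, n = 4) in CTR against 59.2 ± 9.49 CPM in CAC. Its log2 fold change was 0.12, with an interval of -0.19 to 0.42 (edgeR adjusted p = 0.801). With 1 library left out it ranged from -0.007 (without CTR replicate 4) to 0.21. Dnajb4 (ENSMUSG00000028035.14, chr3:152178511-152210302) averaged 15.5 ± 2.46 and 17.2 ± 3.19 CPM in the same order, and its log2 fold change was 0.17 with an interval of -0.21 to 0.55, and with 1 library left out it ranged from 0.04 (without CAC replicate 3) to 0.26 (without CAC replicate 2). Dnaja1 (ENSMUSG00000028410.14, chr4:40722150-40737149), a farnesylated co-chaperone of HSC70, averaged 45.7 ± 4.30 and 47.3 ± 3.95 CPM, and its log2 fold change was 0.05 with an interval of -0.20 to 0.30, which bounds its change more closely than those of the other J-domain genes on the list, and with 1 library left out it ranged from 0.003 (without CAC replicate 3) to 0.11 (without CTR replicate 2). Both Dnajb4 and Dnaja1 hold the heat shock letters shown above.

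Groups that did not overlap were counted over all members. Every CAC library was above every CTR library in 4 of 48 members, against 3.65% of all genes, and below them in 3 of 48, against 3.39%. The 3 below were Hspa12b, Hspa14 and Dnajc19, and the 4 above were Hsp90aa1, Bag3, Dnajb6 and Dnajc21, of which the last 2 were named after their values were seen. Dnajb6 (ENSMUSG00000029131.15, chr5:29735688-29818134) encodes a J-domain protein that holds back protein aggregation. It had 64.0, 69.4, 61.7 and 67.0 CPM in CTR and 85.2, 76.6, 74.2 and 69.9 CPM in CAC. The log2 difference was 0.21, with an interval of -0.02 to 0.44 (edgeR adjusted p = 0.423). Dnajc21, a factor of ribosome assembly, averaged 36.7 ± 3.25 CPM (SD, n = 4) in CTR against 41.3 ± 0.95 CPM in CAC. Its log2 fold change was 0.17 (edgeR adjusted p = 0.583). Scaling by upper quartile or by library size alone left 2 members in the count of those above, against 3.2% and 3.39% of all genes. Leaving out CAC replicate 3 gave 8, against 5.81% of all genes then.

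**Figure D4:**
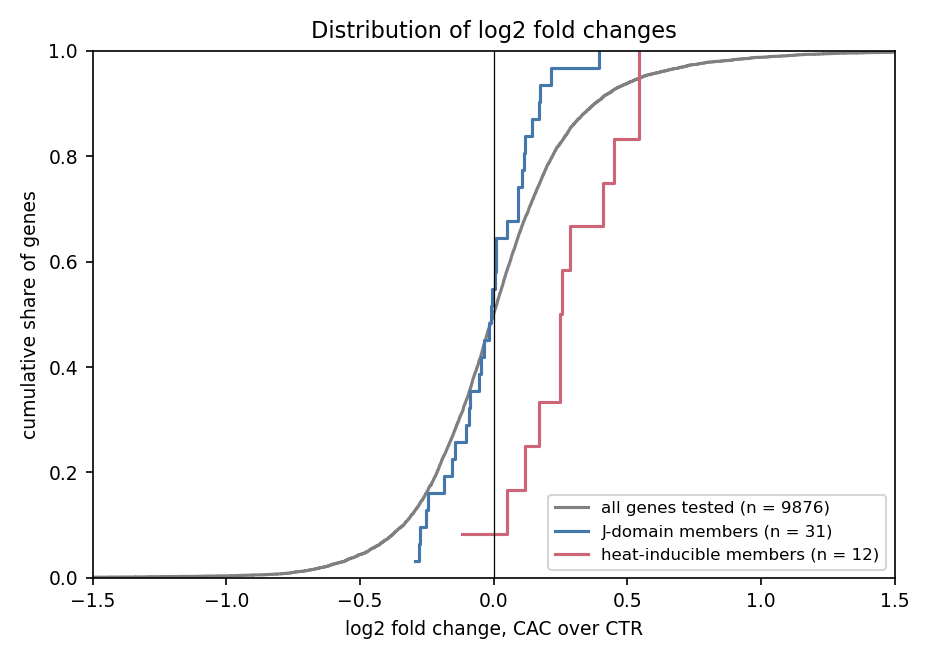
Cumulative share of genes (vertical axis) against the log2 fold change of CAC over CTR (horizontal axis) for the 9876 genes tested (grey), the 31 tested J-domain members (blue) and the 12 tested heat-inducible members (red); 3 genes are in both member groups. The blue line crosses 0 near the grey one, with a median of -0.01, and the red line lies to the right of both up to a log2 fold change of about 0.5, with a median of 0.25.

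Other genes of the chaperone network were read from lists of HSP90 co-chaperones, BAG and nucleotide exchange genes, the TRiC chaperonin with prefoldin, and other heat-induced genes. Of 44 genes 40 were tested, 23 of them higher and 17 lower, the median being 0.05 on the log2 scale, and 0 had an adjusted p under 0.05 in edgeR. With an unadjusted p under 0.05, 4 were higher (10% against 7.01% of all genes) and 1 was lower (2.5% against 5.93%). Fkbp5, a co-chaperone of HSP90 on steroid receptors and a known glucocorticoid target, had 3.24, 2.13, 0.83 and 2.65 CPM in CTR and 4.87, 3.72, 4.395 and 7.32 CPM in CAC. Its groups did not overlap, and its log2 fold change was 1.16 (SE 0.37, edgeR adjusted p = 0.148). Fkbp5 passed the low-count filter through its CAC libraries alone, as no CTR library reached the level the filter asks for. Its values are therefore a description only, and its place among the 4 higher genes depends on the group where it is high. The CTR replicate 3 value lies under the limit that a count of 0 allows in that library.

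Chordc1, which binds HSP90, averaged 34.9 ± 6.79 CPM (SD, n = 4) in CTR against 44.0 ± 2.34 CPM in CAC, and its log2 difference was 0.35 (edgeR adjusted p = 0.264). St13, encoding the HSP70 co-chaperone HIP, was 0.27 higher on the log2 scale (edgeR adjusted p = 0.335), and Cct8, a subunit of the cytosolic chaperonin TRiC, 0.27 higher (edgeR adjusted p = 0.307). Without CAC replicate 1 the difference in St13 was 0.17. Serpinh1, the collagen chaperone HSP47, was the lower one, at 37.3 ± 4.66 CPM (SD, n = 4) in CTR against 29.9 ± 4.32 CPM in CAC, with a log2 difference of -0.34 (edgeR adjusted p = 0.305). With 1 library left out, the unadjusted p was over 0.05 in 3 of 8 fits for Chordc1, 3 for St13, 4 for Cct8 and 4 for Serpinh1. It was over 0.05 in none for Fkbp5, which entered the test through its CAC libraries alone. Of the 9 chaperones of the endoplasmic reticulum and mitochondria, 9 were tested and 0 had an unadjusted p under 0.05, with a median log2 fold change of 0.01 and a range of -0.27 to 0.17.

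Marker lists of other cells were summed in each library, and no test was made of the sums. The ranges of CTR and CAC did not overlap for neutrophil and macrophage markers, and overlapped for skeletal muscle, erythroid, and smooth muscle and pericyte markers. Skeletal muscle markers summed to 1739 to 4119 CPM in CTR and 3617 to 6339 CPM in CAC, with 10 of 16 higher at an unadjusted p under 0.05, 2 of them at an adjusted p under 0.05 in edgeR. Within CTR, the highest sum was in replicate 3, which also had the highest Hspb6 level. Within CAC, the highest sum was in replicate 3, whereas Hspb6 was highest in replicate 2. CAC replicate 1 had both the lowest sum and the lowest Hspb6 level of its group. In CTR the lowest sum was in replicate 4 and the lowest Hspb6 level in replicate 1. CAC replicate 3 had the lowest Stip1, Hspb1, Hsp90aa1 and Hsp90ab1 levels of its group, whereas Bag3 was lowest in replicate 1 and Hsph1 in replicate 4. Neutrophil markers summed to 6.12 to 6.92 CPM in CTR and 165 to 431 CPM in CAC (3 of 8 tested, 3 higher at an adjusted p under 0.05). Camp and Cxcr2 were at 0 in all CTR libraries. Most of the CAC sums came from S100a8 and S100a9, and the cells that hold this RNA were not identified here. Macrophage markers summed to 169 to 188 and 213 to 298 CPM (5 of 6 tested, 3 higher at an unadjusted p under 0.05), and erythroid markers to 6179 to 19269 and 14636 to 44326 CPM (6 of 6 tested, 5 higher at an unadjusted p under 0.05). Smooth muscle and pericyte markers summed to 134 to 146 CPM in CTR and 118 to 154 CPM in CAC, with 2 of 6 higher and 1 lower at that p. CAC replicate 1, the highest library for Hsph1, Stip1 and Hsp90aa1, had the highest neutrophil and erythroid sums. The other higher members peaked elsewhere, Hspb1 in CAC replicate 2 and Bag3 and Hsp90ab1 in CAC replicate 4. No marker of these lists was at 0 in all libraries, and their part in the values of the heat shock genes was not tested. Immediate-early genes, which respond to handling and stress of the tissue, summed to 44.3 to 141 CPM in CTR and 61.5 to 69.5 CPM in CAC, with 0 of 6 tested genes at an unadjusted p under 0.05.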

How the data were processed

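The data are 8 libraries of single-end reads from BAT RNA, 4 of CTR and 4 of CAC. Per the labels and methods, the authors used FastQC 0.11.9, HISAT2 2.2.1 on mm10 and featureCounts with multi-mapped reads, and deposited expected counts (estimated counts with fractions of reads, not normalized). Of the 48 tested members, 27 hold a fraction of a read in at least 1 library, 15 overlap another gene on the same strand and 17 on the opposite strand. A deposited normalized signal, made by the authors with DESeq2, was used in 1 alternative. Coordinates are those of GRCm38 in GENCODE M21, matched by gene ID without version.

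After rounding, CAC was compared with CTR in edgeR 4.0.16 under R 4.3.3 (filterByExpr, TMM, robust quasi-likelihood test, no covariate, two-sided, Benjamini-Hochberg over 9876 genes, threshold 0.05). The procedure was tested on simulated data. The members, gene lists and tests were chosen with earlier results of these data known. Genes named are the 14 heat-inducible members, Hsf1, Hsf2, every other member with an unadjusted p under 0.05 and the other chaperone genes with one. Dnajb6, Dnajc21 and Hspb6 were named after their values were seen. Alternatives were DESeq2 1.42.0, limma 3.58.1 on the signal plus 1, upper quartile and library size scaling, no filter, a minimum of 10 counts per library, decimals dropped, a replicate block, mitochondrially encoded genes removed, and each library left out. Python 3.11.15 with matplotlib 3.10.9, numpy 2.4.6 and pandas 2.3.3 made the tables and plots.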

Additional observations from a re-analysis of the deposited data

Results flagged for a closer look

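In 3 of 46 groups of 4 libraries examined for the named members, 1 library lay far from the other libraries of its group by Dixon's test, where chance at 1 in 20 gives 2.3. Hsp90aa1 stood at 317.0 CPM in CAC replicate 1, against 239.1 to 249.1 CPM in the other CAC libraries. Dnajc21 stood at 42.7 CPM in the same library, against 40.7 to 40.9 CPM in the others. Hspa1a stood at 2.52 CPM in CTR replicate 1, from 7 counts, against 1.07 to 1.24 CPM in the other CTR libraries.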

How the results depend on the processing

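Over the alternatives in which each was fitted, 24 of the 26 named genes kept 1 direction. All 17 gave a value for the named genes except Hsf1, Hspa12a and Fkbp5, which were not fitted under the minimum of 10 counts in every library. With 1 library left out, the log2 fold change of Hsf2 ranged from -0.0892 to 0.33 and that of Dnajb1 from -0.00729 to 0.21. Hsf2 was -0.08 and -0.05 without CTR replicate 2 and CAC replicate 2, and the lowest values came without CTR replicate 1 (Hsf2) and CTR replicate 4 (Dnajb1); the cause was not tested. The 92 genes called became 351 with no filter, 140 with the replicate block, and 42 to 135 when 1 library was left out. The 0 members with an adjusted p under 0.05 became 2, Stip1 (log2 fold change 0.51) and Hspb1 (0.38), with no filter, and 0 to 2 with 1 library left out, where those genes reached 0.69 and 0.55 without CAC replicate 3. The 4 lower members with an unadjusted p under 0.05 became 2 with the replicate block (Hspa12b and Dnajc19) and 1 with DESeq2 (Hspa12b). They became 5 under upper quartile or library size scaling, 3 under the minimum of 10 counts or limma, and 1 to 5 with 1 library left out. Over all genes the share lower ranged from 3.66% (DESeq2) to 7.02% (upper quartile). The 6 higher ones became 7 with the replicate block, Hspb6 among them, 7 with no filter or limma, and 5 to 7 with 1 library left out. Over all genes the share higher ranged from 4.96% (no filter) to 7.56% (minimum of 10 counts). Members with all CAC libraries above CTR numbered 2 under upper quartile scaling, library size scaling or no filter (3.2%, 3.39% and 1.93% of all genes). With 1 library left out they numbered 4 to 8, and the share of all genes rose to 4.77% to 6.64%. Those below numbered 2 under library size scaling (3.16% of all genes) and 3 to 4 with 1 library left out (4.79% to 5.83%). The cause of each shift was not tested. The replicate numbers do not pair the samples: the deviations of same-numbered libraries correlated at 0.03, -0.03, 0.02 and 0.04, and CTR replicates 2 and 3 matched another number best. The 95% interval, which holds the spread between libraries as well as counting error, lay inside ±0.5 on the log2 scale for 20 of 48 members and inside ±1 for 44.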
